A study of Mus musculus with 8 samples.

Results

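Non-muscle myosin II is the motor that pulls on actin filaments outside striated muscle. Each motor holds a pair of heavy chains, which carry the ATP-driven head and the tail that builds filaments, and on every heavy chain sit an essential and a regulatory light chain. Kinases phosphorylate the regulatory light chain and so switch the motor on, and a phosphatase switches it off. In brain the motor is known for its part in growth cones, dendritic spines, the shape of glial cells and the tone of small vessels. The heavy chain genes are Myh9 (chain IIA), Myh10 (IIB) and Myh14 (IIC). Myl6 encodes the essential light chain, and Myl9, Myl12a and Myl12b encode the regulatory ones. These 7 genes, of 15285 measured, were chosen by name as a family with the results of the genotype comparison known, Myh9 being among the genes past its threshold. Their difference between genotypes is therefore given as a description, and nothing is supported with it.

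The study measured poly(A) RNA by sequencing in the ventral mesencephalic area of mice, the part of the midbrain that holds dopaminergic neurons. The 8 libraries comprise 4 of Ercc1 delta/+ mice, carriers of 1 mutant and 1 intact copy of Ercc1, a gene for DNA excision repair, and 4 of wild type animals. All were on a mixed FVB and C57BL/6J background, no treatment is labelled, and the labels used here give no age. Whether every sample came from its own animal is not stated in the labels, so the spread between samples may in part be technical.

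Libraries held 18271978 to 27152167 counts in Ercc1 delta/+ and 20522061 to 31204701 counts in wild type, and values below are read counts scaled to library size by TMM (CPM). The targeted gene, Ercc1, ranged from 10.2 to 12.9 CPM in Ercc1 delta/+ and from 13.8 to 15.4 CPM in wild type, with a log2 fold change of -0.34 (SE 0.10) that missed the threshold (edgeR adjusted p = 0.114). The dopaminergic neuron markers were present in every library, and their summed level was 222 to 462 CPM in Ercc1 delta/+ and 327 to 497 CPM in wild type. Choroid plexus genes, which mark a tissue bordering the ventricles, summed to 416 to 2073 CPM in Ercc1 delta/+ and 356 to 588 CPM in wild type. The log2 fold change was positive for all 10 of them (median 1.26). In these bulk samples, fewer cells of a type and less RNA per cell cannot be told apart.

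The regulatory light chains are shown first, because their switch site and their likeness decide how well reads can separate them. The stretch printed runs from base 40 to base 99 of each coding sequence, counted from the A of the start codon, in GENCODE M21 transcripts of GRCm38. Capitals mark the codons of the adjacent threonine and serine that myosin light chain kinase phosphorylates.
Myl9: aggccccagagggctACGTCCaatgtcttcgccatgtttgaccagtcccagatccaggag
Myl12a: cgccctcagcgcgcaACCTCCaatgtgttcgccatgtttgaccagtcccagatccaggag
Myl12b: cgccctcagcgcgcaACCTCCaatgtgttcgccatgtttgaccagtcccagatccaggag
The Myl12a and Myl12b stretches had 0 differences over 60 bases, and Myl9 differed from each of them at 8 bases. Over the whole coding sequence of 519 bases, Myl12a and Myl12b were identical at 501 bases, or 96.5%, and the 2 genes lie side by side with 0 coding genes between them and overlapping exons on the same strand. Of the 50-base windows of the Myl12a transcript, 29.6% also occur in transcripts of other genes, mostly Myl12b, and 11.4% of the Myl12b windows occur elsewhere. Myl6 shared 53.2% of its windows with other annotated genes, among them the predicted genes Gm5526 and Gm10080. How reads with several matches were counted is unknown from the sources used here, so the split between Myl12a and Myl12b and the level of Myl6 are uncertain. Myl9 and Myh14 shared 0 windows with other genes, and Myh9 and Myh10 shared 1.12% and 0.943%. The heavy chains are more distant relatives, with coding identities of 74.7% for Myh9 and Myh10, 70.7% for Myh9 and Myh14 and 68.0% for Myh10 and Myh14. Exons of Myh14 overlap those of a gene on the opposite strand, 2310016G11Rik, and exons of Myl12a overlap those of Myom1 there. Use of strand in counting is not given either.

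Promoters are shown for Myh9, the chain with the highest fold change, and for Myl9 and Myl6, whose promoters hold a CArG box, the letters that serum response factor (SRF) binds. Each is the RefSeq window of GRCm38.p6 from 250 bases before to 50 bases after the annotated start, written 5′ to 3′ on the gene's strand, with CArG boxes and GC boxes (GGGCGG on either strand) in capitals.
Myh9, chr15:77842126-77842425, minus strand: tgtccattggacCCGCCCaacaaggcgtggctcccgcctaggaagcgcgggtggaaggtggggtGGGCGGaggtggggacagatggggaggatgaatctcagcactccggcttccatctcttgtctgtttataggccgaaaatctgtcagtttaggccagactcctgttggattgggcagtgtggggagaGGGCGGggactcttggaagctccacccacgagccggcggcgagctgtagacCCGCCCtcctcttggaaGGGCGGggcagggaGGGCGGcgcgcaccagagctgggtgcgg
Myl9, chr2:156775214-156775513, plus strand: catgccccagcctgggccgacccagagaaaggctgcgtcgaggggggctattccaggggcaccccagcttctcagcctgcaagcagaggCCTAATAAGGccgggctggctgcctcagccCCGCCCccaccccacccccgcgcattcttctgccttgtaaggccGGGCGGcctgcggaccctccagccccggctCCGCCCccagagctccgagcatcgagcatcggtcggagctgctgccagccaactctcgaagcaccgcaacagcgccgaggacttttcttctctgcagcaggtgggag
Myl6, chr10:128492960-128493259, minus strand: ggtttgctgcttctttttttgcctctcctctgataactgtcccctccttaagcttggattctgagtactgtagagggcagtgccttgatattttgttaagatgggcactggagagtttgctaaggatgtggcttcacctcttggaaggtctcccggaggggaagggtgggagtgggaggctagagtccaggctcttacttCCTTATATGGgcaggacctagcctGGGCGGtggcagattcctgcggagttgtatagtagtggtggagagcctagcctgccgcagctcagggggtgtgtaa
The Myl9 promoter had a CArG box beginning 161 bases before the start and 3 GC boxes. One of the 2 Myl6 promoters had a CArG box beginning 50 bases before the start and 1 GC box, and the other Myl6 promoter had neither. The Myh9 window had 0 CArG boxes and 6 GC boxes. Of 32851 such promoters, 1.63% held a CArG box and 35.7% held a GC box on either strand. Among the other members, GC boxes numbered 0 in Myh10, 1 in Myh14, 1 in Myl12a and 3, some overlapping, in Myl12b, and no CArG box was found in these windows. The motif TATAAA, in 13.6% of all promoters, was in the Myh9 window alone among the 7 genes, 123 bases before the start on the opposite strand. The motif GGAATG, bound by TEAD factors and in 14.7% of all promoters, was in the Myh10 and Myl12a windows. A match of letters is a description and not evidence of binding.

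Among the heavy chains, Myh9 and Myh10 stood higher in every Ercc1 delta/+ library than in any wild type library, while the groups overlapped for Myh14. Of all genes tested, 5.18% were higher without overlap. Myh9 was 1.47 times and Myh10 1.12 times the wild type level, while Myh14 was 1.01 times that level. Myh9 (RefSeq NM_022410) encodes chain IIA, which elsewhere in the body prevails in platelets, white cells and other migrating cells. It held 147, 132, 131 and 137 CPM in Ercc1 delta/+ replicates 1 to 4, against 87.9, 97.0, 88.2 and 100 CPM in wild type replicates 1 to 4. The lowest Ercc1 delta/+ library thus lay well above the highest wild type library. Means were 137 ± 7.32 CPM in Ercc1 delta/+ and 93.3 ± 6.24 CPM in wild type (SD, 4 libraries each), and the log2 fold change was 0.55 (SE 0.07).

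In the edgeR quasi-likelihood test over all genes, 1 of the 7 members, Myh9, had an adjusted p under 0.05 (adjusted p = 0.0389), where 0.0467% of the 15000 genes tested did, 0.0133% in the higher and 0.0333% in the lower direction. Since this comparison was used in the choice of the family, nothing is read from that count. Myh9 had the 7th smallest p of all genes. In the authors' deposited table, its log2 fold change is 0.54 with an adjusted p of 0.00238, and 1.86% of the rows of that table had an adjusted p under 0.05. The sign of Myh9 was positive in 21 of 21 other settings, from 0.36 to 0.59, and 9 of these kept the adjusted p under 0.05. It was above the threshold once an offset removed the trend over length and GC content (0.36, SE 0.06, adjusted p = 0.181). Leaving out any single library other than Ercc1 delta/+ replicate 2 also took it to or above the threshold (adjusted p up to 0.162), that is, without Ercc1 delta/+ replicate 1, 3 or 4 or wild type replicate 1, 2, 3 or 4.

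Myh10 (NM_175260) encodes chain IIB, the prevailing heavy chain of neurons. It held 417, 407, 416 and 406 CPM in Ercc1 delta/+, against 378, 365, 372 and 360 CPM in wild type. Both groups were tight, with coefficients of variation of 1.46% in Ercc1 delta/+ and 2.12% in wild type, and they did not overlap. The means were 412 ± 6.00 CPM in Ercc1 delta/+ and 369 ± 7.83 CPM in wild type (SD, 4 libraries each), and the log2 fold change was 0.16 (SE 0.05). Under the length and GC offset, Myh10 had a log2 fold change of 0.01 (SE 0.05).

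Myh14 (NM_028021) encodes chain IIC, mutations of which can cause deafness in humans. It held 76.4, 88.6, 98.3 and 84.9 CPM in Ercc1 delta/+, against 81.8, 84.0, 98.8 and 78.7 CPM in wild type. The groups overlapped over most of their range, and replicate 3 was the highest of its group in both. The log2 fold change was 0.02 (SE 0.10), with means of 87.0 ± 9.05 CPM in Ercc1 delta/+ and 85.8 ± 8.93 CPM in wild type (SD, 4 libraries each). Its sign was negative in 6 of the 21 other settings, among them the length and GC offset (-0.19, SE 0.10).

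**Figure D1:**
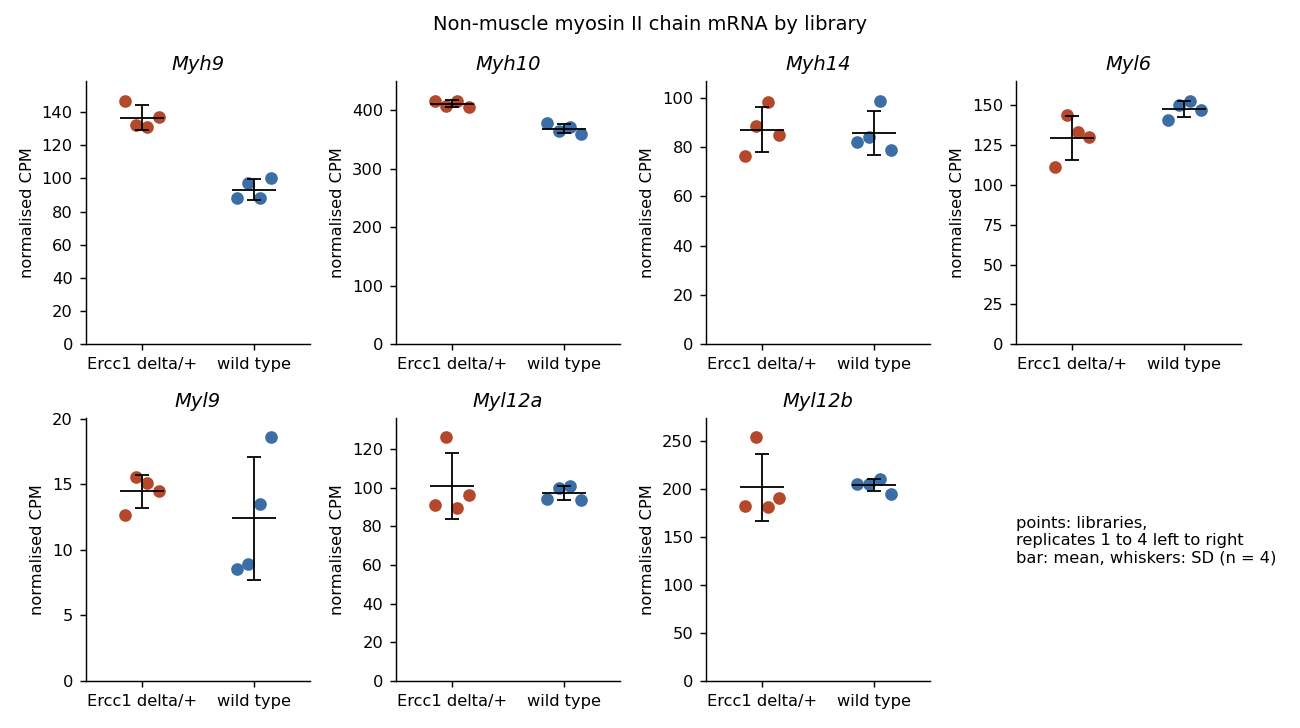
Normalised CPM (vertical axis, from 0) of the 7 genes in the 4 Ercc1 delta/+ and 4 wild type libraries. Points are libraries in the order of replicates 1 to 4, bars are means and whiskers SD. Myh9 and Myh10 do not overlap between genotypes, Myl9 is spread from 8.57 to 18.6 CPM in wild type, and replicate 2 of Ercc1 delta/+ stands high for Myl12a and Myl12b.

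Myl6 (NM_010860), the essential light chain gene, supplies the chain that stabilises the lever arm of the motor and is shared with smooth muscle myosin. Its level was 111, 144, 133 and 130 CPM in Ercc1 delta/+, against 141, 150, 153 and 147 CPM in wild type. Of the Ercc1 delta/+ libraries 3 lay below every wild type library, and replicate 2 lay inside the wild type range. Means were 130 ± 13.5 CPM in Ercc1 delta/+ and 148 ± 5.14 CPM in wild type (SD, 4 libraries each), and the log2 fold change was -0.19 (SE 0.08). Under the length and GC offset its value was 0.07 (SE 0.05). Myl6b, a related essential light chain gene, averaged 27.6 ± 3.83 CPM in Ercc1 delta/+ and 31.9 ± 2.24 CPM in wild type (SD, 4 libraries each), a log2 fold change of -0.21 (SE 0.11).

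Of the regulatory light chain genes, Myl12a and Myl12b are broadly expressed, and Myl9 is best known from smooth muscle. Myl12b (NM_023402) held 182, 254, 181 and 191 CPM in Ercc1 delta/+, against 205, 205, 210 and 195 CPM in wild type. Myl12a (NM_026064) held 91.2, 126, 89.5 and 96.3 CPM in Ercc1 delta/+, against 94.0, 100, 101 and 93.8 CPM in wild type. In both genes replicate 2 was the highest of all 8 libraries, and the other 3 Ercc1 delta/+ libraries lay below every wild type library for Myl12b. For Myl12a, Ercc1 delta/+ replicates 1 and 3 lay below every wild type library and replicate 4 among them. The log2 fold changes were 0.05 (SE 0.11) for Myl12a and -0.01 (SE 0.11) for Myl12b. Without Ercc1 delta/+ replicate 2 they were -0.07 (SE 0.06) for Myl12a and -0.14 (SE 0.06) for Myl12b. Coefficients of variation were 16.7% in Ercc1 delta/+ and 4.01% in wild type for Myl12a, and 17.2% in Ercc1 delta/+ and 3.10% in wild type for Myl12b. The ratio of Myl12b to Myl12a per kilobase was 1.80, 1.83, 1.82 and 1.79 in Ercc1 delta/+, against 1.98, 1.84, 1.88 and 1.88 in wild type. Ercc1 delta/+ replicate 2 did not stand apart in this ratio.

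Myl9 (NM_172118) was the least abundant chain. It held 12.7, 15.6, 15.1 and 14.5 CPM in Ercc1 delta/+, against 8.57, 8.92, 13.5 and 18.6 CPM in wild type. The wild type libraries spanned more than the whole Ercc1 delta/+ range, with coefficients of variation of 8.77% in Ercc1 delta/+ and 37.9% in wild type. Its log2 fold change was 0.21 (SE 0.23), and without wild type replicate 4, the highest library, it was 0.48 (SE 0.17). With the mean of the smooth muscle and pericyte markers as a covariate it was -0.26 (SE 0.13).

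Per length, the order of the mean levels in wild type ran from Myl6 at the top to Myl9 at the bottom. Levels between genes are compared as CPM per kilobase of transcript. Myl6 stood at 195 ± 20.3 in Ercc1 delta/+ and 222 ± 7.73 in wild type, and Myl12b at 94.2 ± 16.2 in Ercc1 delta/+ and 95.1 ± 2.95 in wild type, in CPM per kilobase (SD, 4 libraries each). With the transcript lengths taken, these 2 levels were clear of each other and of the rest in both genotypes. Myl12a followed with 52.0 ± 8.69 in Ercc1 delta/+ and 50.2 ± 2.01 in wild type, beside Myh10 with 52.8 ± 0.770 in Ercc1 delta/+ and 47.3 ± 1.01 CPM per kilobase in wild type. The wild type ranges of these neighbours, 48.4 to 52.0 for Myl12a and 46.2 to 48.5 CPM per kilobase for Myh10, overlapped. The lowest 3 genes were Myh14 with 13.6 ± 1.42 in Ercc1 delta/+ and 13.4 ± 1.40 in wild type, Myh9 with 18.4 ± 0.984 in Ercc1 delta/+ and 12.6 ± 0.839 in wild type, and Myl9 with 12.8 ± 1.12 in Ercc1 delta/+ and 11.0 ± 4.17 CPM per kilobase in wild type. Their wild type ranges overlapped from 1 gene to the next, while in Ercc1 delta/+ the range of Myh9, 17.7 to 19.8 CPM per kilobase, lay above that of Myh14, which reached 15.4 CPM per kilobase. The length taken matters for Myl6, Myl12a and Myh14. With the shortest coding transcript the wild type mean was 263 for Myl6, 99.2 for Myl12a and 20.7 CPM per kilobase for Myh14. With the longest it was 88.6 CPM per kilobase for Myl6. Myl12b stayed at 95.1 CPM per kilobase with either length, so Myl12a at its shortest stood above it and Myl6 at its longest below it.

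**Figure D2:**
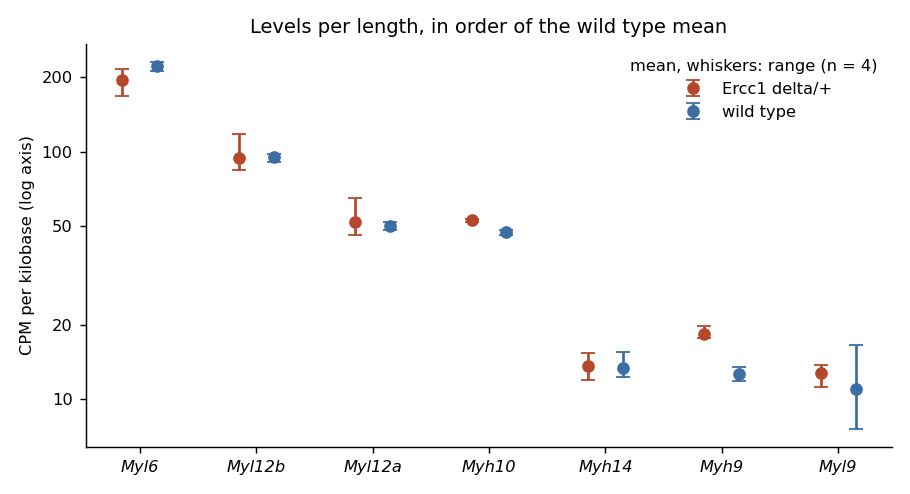
Level of each chain in CPM per kilobase of transcript (vertical log axis), ordered by the wild type mean, in Ercc1 delta/+ and wild type. Points are means of 4 libraries and whiskers span the lowest and highest library. With the transcript lengths taken, Myl6 stands at the top, and Myh14, Myh9 and Myl9 lie together at the bottom in wild type. In Ercc1 delta/+ Myh9 stands above the other 2.

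As a share of heavy chain mRNA per kilobase, chain IIB led in both genotypes. Myh9 made up 20.4% to 23.2% in Ercc1 delta/+ (mean 21.7% ± 1.19) and 15.8% to 18.7% in wild type (mean 17.1% ± 1.39; SD, 4 libraries each). The Myh9 share did not overlap between genotypes. Myh10 averaged 62.2% ± 0.397 in Ercc1 delta/+ and 64.6% ± 1.21 in wild type, and Myh14 averaged 16.0% ± 1.57 in Ercc1 delta/+ and 18.3% ± 1.57 in wild type (SD, 4 libraries each). There were thus 2.87 ± 0.139 Myh10 for each Myh9 transcript in Ercc1 delta/+ and 3.79 ± 0.328 in wild type (SD, 4 libraries each), counted per kilobase. The sum of the 3 heavy chains was 85.3, 83.9, 86.5 and 83.8 CPM per kilobase in Ercc1 delta/+. In wild type it was 73.1, 73.1, 75.1 and 72.0 CPM per kilobase. These sums were taken without the length and GC offset. Under that offset, log2 fold changes were 0.36 for Myh9, 0.01 for Myh10 and -0.19 for Myh14. The sum of the 3 regulatory light chains was 159 ± 25.6 CPM per kilobase in Ercc1 delta/+ and 156 ± 4.20 CPM per kilobase in wild type (SD, 4 libraries each), and Ercc1 delta/+ replicate 2 was the highest library at 197 CPM per kilobase. Among the regulatory chains Myl12b took the largest share, 59.2% ± 0.673 in Ercc1 delta/+ and 60.9% ± 1.98 in wild type, and Myl9 the smallest, 8.16% ± 0.968 in Ercc1 delta/+ and 7.02% ± 2.62 in wild type (SD, 4 libraries each). The lead of Myl12b depends on the length taken. With the shortest coding transcript, Myl12a had a wild type mean of 99.2 CPM per kilobase, against 95.1 for Myl12b.

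Fold changes across all genes moved with transcript length in these libraries, and the chains lie at both ends of the length range. Myh9 and Myh10, with transcripts of 7433 and 7791 bases, fall in the longest 10% of genes. The median log2 fold change of that bin was 0.14, and 16.2% of its genes did not overlap between genotypes in the higher direction. The value of Myh10 (0.16) lay near this median, and that of Myh9 (0.55) lay above it. Myh14, with 6390 bases, falls in the next 10%, whose median was 0.07. Myl6 and Myl9, with 665 and 1128 bases, fall in the shortest 10%, whose median was -0.21, close to the -0.19 of Myl6 and below the 0.21 of Myl9. Myl12a and Myl12b lie in the third 10% from the short end, with a median of -0.06. With the offset for length and GC content, the log2 fold changes were 0.36 for Myh9, 0.01 for Myh10, -0.19 for Myh14, 0.07 for Myl6, 0.32 (SE 0.24) for Myl9, 0.10 (SE 0.09) for Myl12a and 0.00 (SE 0.10) for Myl12b.

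**Figure D3:**
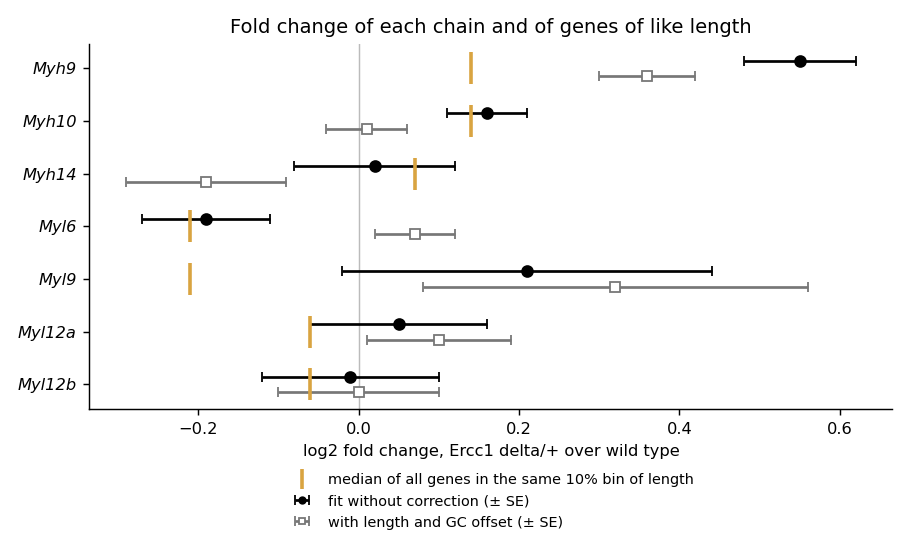
Log2 fold change of each chain, Ercc1 delta/+ over wild type (horizontal axis), from the fit without correction (filled circles), with the length and GC offset (open squares), both with SE, and the median of all genes in the same 10% bin of transcript length (upright bars). Myh9 lies to the right of its bar in both fits, Myh10 and Myl6 lie near their bars, and the offset brings Myh10 to 0.01 and Myl6 to 0.07.

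Genes of the motor's machinery and other myosin genes were listed by role, and 83 of them were tested. These include 14 chains of muscle and smooth muscle myosin II and 21 unconventional myosins. None passed the edgeR quasi-likelihood test after adjustment over all genes (0 of 83). At an unadjusted p under 0.05, 19 were higher and 1 was lower, where 9.03% of all genes tested were higher and 9.57% lower. DESeq2 called 8 of them higher and 0 lower, and called 7.41% of all the genes it adjusted, and limma-voom called 0, and 0.347% of all genes. Log2 fold changes were positive in 64 of 83, against 49.5% of all genes, whose median was -0.003. In 11 of the 83 the groups did not overlap in the higher direction and in 0 in the lower, where 5.18% of all genes were higher and 6.86% lower without overlap. Many of these genes are long, though not in every list. The median transcript length of a list ran from 2407 bases (actin filament and adhesion) to 6727 bases (unconventional myosins). Among the longest 10% of all genes the median log2 fold change was 0.14, and 16.2% were higher without overlap. The median lengths of the actin list and of the SRF list (2507 bases) fall in the bin of 2144 to 2579 bases. In that bin the median log2 fold change was -0.02, and 2.51% were higher without overlap. The part of length in the counts of these 83 genes was not tested. The lists were chosen with earlier results of these data known.

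The kinases that phosphorylate the regulatory light chain had a median log2 fold change of 0.10, with 8 of 9 positive. Mylk, the dedicated myosin light chain kinase, averaged 23.9 ± 1.47 CPM in Ercc1 delta/+ and 19.3 ± 2.06 CPM in wild type (SD, 4 libraries each), a log2 fold change of 0.31 (SE 0.09). Cdc42bpa and Cdc42bpb, which encode kinases downstream of Cdc42, had 0.19 (SE 0.06) and 0.18 (SE 0.07). Under the length and GC offset, values were 0.14 for Mylk, 0.09 for Cdc42bpa and -0.01 for Cdc42bpb. None of these 3 passed the adjusted test. In the myosin phosphatase list 4 of 8 were positive and the median was 0.01. Its targeting subunit genes Ppp1r12a and Ppp1r12b gave log2 fold changes of 0.30 (SE 0.08) and 0.31 (SE 0.11). In both the groups did not overlap, and the offset values were 0.32 for Ppp1r12a and 0.27 for Ppp1r12b. Mprip, a scaffold that brings the phosphatase to actin, had 0.20 (SE 0.08), or 0.02 under the offset, and the catalytic subunit gene Ppp1cb had -0.26 (SE 0.12).

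Partners in myosin folding and assembly had a median of 0.01 over 5 genes. Svil, whose protein links myosin II and actin to membranes, had 0.33 (SE 0.13), or 0.19 under the offset, the myosin chaperone gene Unc45a 0.08 (SE 0.07) and Llgl1 -0.02 (SE 0.07). S100a4, whose protein binds the tail of chain IIA, was at most 0.760 CPM in Ercc1 delta/+ and 1.29 CPM in wild type and had -0.85 (SE 0.45).

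The actin filament and adhesion list held the gene nearest to the threshold. Of its genes 15 of 20 were positive, with a median of 0.11, and 0.12 with the length and GC offset. Vcl, which encodes vinculin at adhesion sites, averaged 71.7 ± 4.19 CPM in Ercc1 delta/+ and 54.9 ± 2.96 CPM in wild type (SD, 4 libraries each). Its log2 fold change was 0.38 (SE 0.07), just short of the edgeR threshold (adjusted p = 0.0523), and 0.32 with the length and GC offset. Tln1, for talin, averaged 93.7 ± 2.54 CPM in Ercc1 delta/+ and 76.4 ± 5.06 CPM in wild type (SD, 4 libraries each), a log2 fold change of 0.29 (SE 0.06) that was 0.08 with the offset. The crosslinker genes Actn4 and Actn1 gave log2 fold changes of 0.37 (SE 0.10) and 0.51 (SE 0.19). With the offset Actn4 had 0.30 and Actn1 0.45. Actb, for the beta-actin of the filament itself, averaged 794 ± 60.8 CPM in Ercc1 delta/+ and 779 ± 73.7 CPM in wild type (SD, 4 libraries each), and the log2 fold change was 0.03 (SE 0.09).

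SRF and its cofactors drive many genes of the actin cytoskeleton. All 6 tested genes of this list were positive, with a median of 0.43 and 0.29 with the length and GC offset. Srf, Mrtfa and Mrtfb in it are the factors themselves, and the rest are targets. Set against the mean of all 8 libraries on the log2 scale, the list averaged 0.47, 0.27, -0.10 and 0.37 in Ercc1 delta/+. In wild type replicates 1 to 4 it averaged -0.73, -0.01, -0.21 and -0.06, so the groups overlapped. Mrtfa, an SRF cofactor that senses free actin, averaged 64.9 ± 6.92 CPM in Ercc1 delta/+ and 48.7 ± 6.25 CPM in wild type (SD, 4 libraries each), with groups that did not overlap and a log2 fold change of 0.42 (SE 0.11). Mrtfb, the related cofactor gene, had 0.45 (SE 0.15), the target gene Ccn2 0.85 (SE 0.38) and Srf itself 0.29 (SE 0.15). With the offset, values were 0.28 for Mrtfa, 0.30 for Mrtfb, 0.85 for Ccn2 and 0.16 for Srf. None of the 6 passed the edgeR test. Of the 2 members with a CArG box in the windows printed above, Myl9 had a log2 fold change of 0.21 and Myl6 of -0.19.

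The other myosin genes give the setting of the family. Among 14 tested chains of muscle and smooth muscle myosin II, 10 were positive with a median of 0.22, and 0.09 with the offset. The muscle heavy chain genes Myh8 and Myh13 reached at most 1.87 and 0.793 CPM in Ercc1 delta/+. In wild type they reached at most 1.09 and 0.488 CPM, and both lay far below the non-muscle heavy chains. Other genes of the list stood higher. In sum the list, Myh11 and Myl6b included, reached 104 to 119 CPM in Ercc1 delta/+. In wild type it summed to 95.8 to 119 CPM. The skeletal muscle markers summed to 37.9 to 48.4 CPM in Ercc1 delta/+ and 40.9 to 46.0 CPM in wild type. Most of that sum was Acta1, with means of 32.0 CPM in Ercc1 delta/+ and 31.4 CPM in wild type. Ckm averaged only 0.198 CPM in Ercc1 delta/+ and 0.269 CPM in wild type. The log2 fold changes of Myh8 and Myh13 were 0.74 (SE 0.25) and 0.80 (SE 0.30). At similarly low levels, Myl2 had -1.04 (SE 0.43) and Myh15 -0.43 (SE 0.22). Of 21 unconventional myosins 18 were positive with a median of 0.12, and the median was -0.00 with the offset. Myo18a, whose product joins myosin II filaments, had 0.27 (SE 0.08), or 0.08 under the offset. Myo1c had 0.33 (SE 0.11), Myo9b 0.33 (SE 0.14) and Myo5b 0.81 (SE 0.37). Their offset values were 0.22 for Myo1c, 0.15 for Myo9b and 0.67 for Myo5b.

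**Figure D4:**
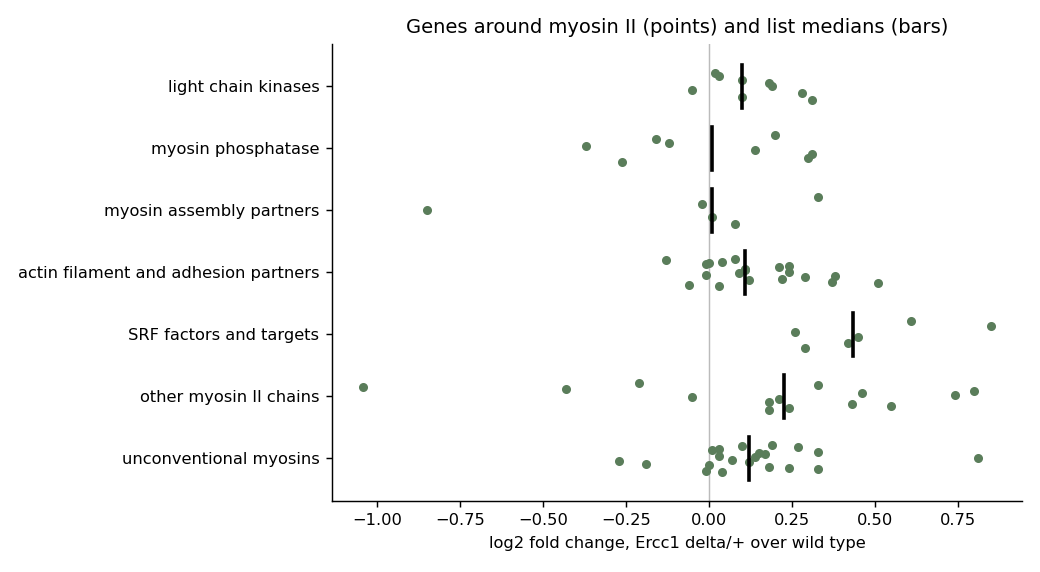
Log2 fold change, Ercc1 delta/+ over wild type (horizontal axis), of each tested gene (points) in 7 lists around myosin II, with list medians as upright bars. The SRF list lies wholly to the right of 0 with a median of 0.43, and the medians of the myosin phosphatase and myosin assembly lists lie at 0.01.

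Markers of vessel walls and meninges, tissues rich in contractile cells, also stood higher in Ercc1 delta/+ on balance. Of the smooth muscle markers 7 of 8 were positive with a median of 0.43, and their summed level was 99.7, 103, 109 and 104 CPM in Ercc1 delta/+, against 69.0, 70.7, 89.1 and 113 CPM in wild type. Pericyte markers were positive in 9 of 10 with a median of 0.32, and summed to 235 to 279 CPM in Ercc1 delta/+ and 156 to 260 CPM in wild type. Fibroblast and meningeal markers were positive in 9 of 9 with a median of 0.52, and summed to 299 to 374 CPM in Ercc1 delta/+ and 105 to 355 CPM in wild type. Endothelial markers were positive in 10 of 14 with a median of 0.13, microglial markers in 5 of 10 with a median of 0.01. Of the 51 genes of these 5 lists, 0 passed the edgeR test, and at an unadjusted p under 0.05 10 were higher and 0 lower, where 9.03% of all genes were higher and 9.57% lower. DESeq2 called Flt1 and Lama1 higher and 0 lower, where it called 7.41% of all genes, and limma-voom called 0. Acta2, Tagln and Myh11, which define smooth muscle, were detected in every library, as were the chains themselves.

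Myh11, the smooth muscle heavy chain, had the pattern of Myl9 in wild type. It held 20.4 to 21.4 CPM in the 4 Ercc1 delta/+ libraries, against 9.46, 9.81, 15.0 and 26.5 CPM in wild type. As for Myl9, wild type replicates 1 and 2 were the lowest of the 8 libraries and wild type replicate 4 the highest. Set against the mean of their own group on the log2 scale, Myl9 deviated by -0.46, -0.40, 0.20 and 0.65 in wild type replicates 1 to 4, and the smooth muscle list by -0.45, -0.24, 0.15 and 0.53. In Ercc1 delta/+ neither varied much, with Myl9 between -0.18 and 0.11 and the list between -0.06 and 0.05, and their signs matched in 1 of 4 libraries there, against 4 of 4 in wild type. For the pericyte list the signs matched in 2 of 4 Ercc1 delta/+ and 4 of 4 wild type libraries. Of the 12 marker lists compared, smooth muscle was the most like Myl9 (r = 0.93 after subtracting group means, 8 libraries), followed by pericyte (0.90) and fibroblast and meninges (0.80). The part of vessel wall content in the level of Myl9 was not tested.

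For Myh9, the likeness within groups was 0.48 with the smooth muscle list, 0.14 with the pericyte list and 0.65 with the fibroblast and meninges list (8 libraries, a description). Of the 12 marker lists, the value furthest from 0 was -0.78, with the oligodendrocyte list. Wild type replicate 4 had the highest smooth muscle sum of all libraries, 113 CPM, and its Myh9 level of 100 CPM was the highest in wild type and below every Ercc1 delta/+ library. With the same vascular covariate, the log2 fold change of Myh9 was 0.51 (SE 0.10, edgeR adjusted p = 0.194). Ercc1 delta/+ replicate 4, whose choroid plexus sum of 416 CPM lay inside the wild type range, held 137 CPM of Myh9. Of that sum, 313 CPM was Enpp2, and other genes of the list differed in that library. Kl (11.7 CPM) and Kcnj13 (2.79 CPM) lay above every wild type library there. Ttr (32.5 CPM) lay inside the wild type range and Folr1 (0.778 CPM) below it. Wild type replicate 4 and Ercc1 delta/+ replicate 4 are single libraries, and no conclusion is drawn from them. The part of vessel wall, meningeal or choroid plexus content in the level of Myh9 was not tested.

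Deviations of Myh14 had the sign of those of the oligodendrocyte markers, the genes of myelin, in 4 of 4 Ercc1 delta/+ and 3 of 4 wild type libraries. Relative to the group mean on the log2 scale, Myh14 deviated by -0.18, 0.03, 0.18 and -0.03 in Ercc1 delta/+, and the oligodendrocyte list by -0.30, 0.21, 0.16 and -0.07. In wild type Myh14 deviated by -0.06, -0.03, 0.21 and -0.12, and the list by -0.08, 0.03, 0.42 and -0.37. The lowest library of the list had the lowest Myh14 in each genotype. The summed level of the list was 6542 to 9944 CPM in Ercc1 delta/+ and 5906 to 10733 CPM in wild type, and its median log2 fold change was -0.06. The part of oligodendrocyte content in the level of Myh14 was not tested.

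**Figure D5:**
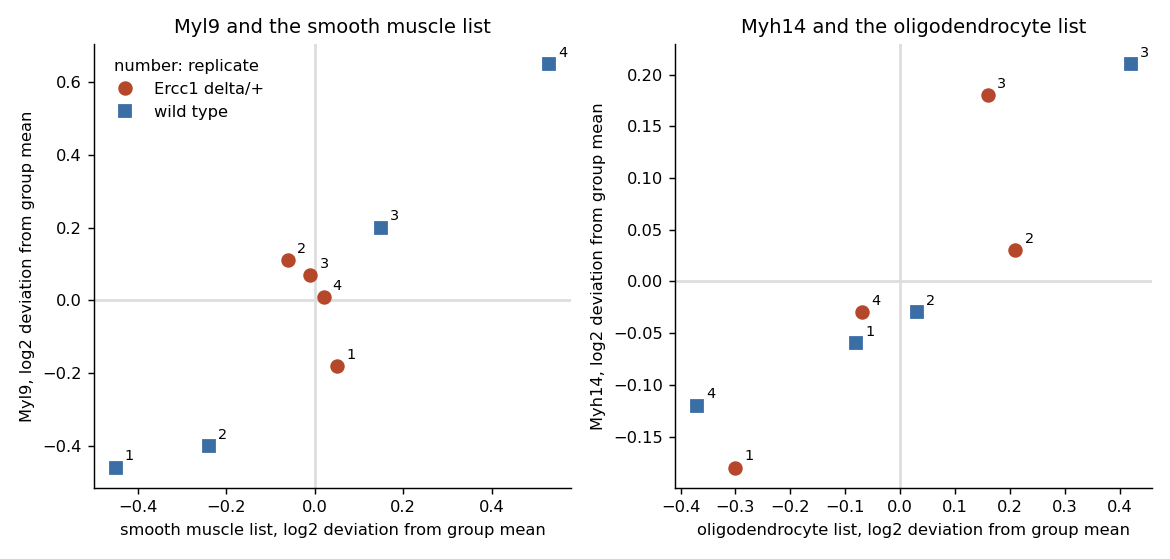
Log2 deviation from the group mean of Myl9 against the smooth muscle list (left) and of Myh14 against the oligodendrocyte list (right), on both axes, for the 4 Ercc1 delta/+ libraries (circles) and the 4 wild type libraries (squares), numbered by replicate. Wild type spans -0.46 to 0.65 for Myl9 along the smooth muscle list, while Ercc1 delta/+ stays between -0.18 and 0.11.

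The genes most like each chain were found among 12080 genes with a mean of at least 5 CPM, by Pearson's r over the 8 libraries after subtracting the mean of each library's own group. As the highest of many values over 8 libraries that share depth and tissue composition, these are descriptions only. Myl9 was most like an identifier without a matched symbol (NM_024477, 0.984), Notch3 (0.982), a receptor gene of vessel wall cells, and Crtap (0.969), part of a complex that modifies collagen. Myh14 was most like Micall1 (0.982), Arsg (0.979) and Itgb4 (0.974). Myh9 was most like Tmem64 (0.974), Syt6 (0.959) and Fancl (0.958), and Myh10 like Furin (0.995), Cdkn1b (0.958) and Lypla1 (0.957). Among the light chains, Myl6 was most like Use1 (0.995), Taf11 (0.984) and Nedd8 (0.984), and Myl12b like Tsg101 (0.993), Krtcap2 (0.992) and Hgsnat (0.991). Myl12a was most like Fgf1 (0.987), its neighbour Myl12b (0.982) and Mrpl48 (0.977), and no other pair of members was among these closest genes. Between members, the same measure was -0.48 for Myh9 and Myh10, -0.74 for Myh9 and Myh14 and 0.68 for Myl6 and Myl12b.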

How the data were processed

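Poly(A) RNA of 4 Ercc1 delta/+ and 4 wild type samples was sequenced in 1 lane, per the labels' protocols. Per the submitters' processing notes, TopHat 1.3.1, edgeR and the mm9 build were used; the counting tool is not given in the sources used here. The authors deposited raw counts for 19931 RefSeq transcript rows, each row totalling at least 31. They also deposited their own log2 fold changes with a p-value and adjusted p-value for each row.

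Symbols came from RefSeq and GENCODE M21 tables of GRCm38 (19600 rows matched). The row with the highest total stood for each of 2892 genes with several rows, and 87 genes with identical counts were merged. Each member had 1 row. No 2 replicates agreed within sampling noise (lowest chi-square over degrees of freedom 11.8). The test was edgeR 4.0.16 in R 4.3.3 (quasi-likelihood, TMM, filterByExpr, two-sided, Benjamini-Hochberg over 15000 genes, threshold 0.05). Alternatives were DESeq2 1.42.0, limma 3.58.1 (voom), RLE and upper-quartile scaling, filters, robust fitting, summed or separate rows, a depth term, a vascular covariate, leaving out each library, the replicate number as a block, and an offset for length and GC content (lowess, span 0.3; length known for 97.97% of genes). Log2 CPM used a prior count of 2. At these depths 3 counts equal 0.0915 to 0.17 CPM, for counting error only. Promoter and coding sequences come from GRCm38, not mm9, and were used for letters and lengths only. Sequences and motifs were read with Python 3.11.15. The script was tested on simulated data. The named genes were the 7 members, Ercc1, up to 4 genes per list with the smallest p, the first marker genes of each list, the 3 genes most like each member, and Myh11, Acta2, Tagln, Mylk, Srf, Actb and Myl6b; not all are printed, and 1 list is not reported here. Members, lists and this rule were chosen with earlier results of these data known.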

Additional observations from a re-analysis of the deposited data

Results flagged for a closer look

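Ercc1 delta/+ replicate 2 stood far from the other 3 libraries of its group in Myl12b, at 254 CPM against 181 to 191 CPM. The gap to the next library was 0.858 of the group's whole range, above Dixon's 95% critical value for 4 samples. Chance alone marks about 1 in 20 groups, and 14 groups (7 genes in 2 genotypes) were looked at. The same library was also the highest for Myl12a, which shares sequence with Myl12b.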

How the results depend on the processing

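The 7 genes past the threshold became 33 with RLE scaling, 86 with upper-quartile scaling, 1025 with DESeq2, 52 with limma-voom, 4 with every transcript as its own row, 1 with the length and GC offset, 1 with the depth term, 3 with the vascular covariate and between 0 (without Ercc1 delta/+ replicate 4) and 320 (without Ercc1 delta/+ replicate 2) with 1 library left out. Deviations of same-numbered samples had correlations of -0.275, 0.168, -0.122 and 0.262. Such values of both signs cannot decide whether the replicate numbers pair the samples. With the replicate block 0 genes passed, and Myh9 had 0.55 with an edgeR adjusted p of 0.119. Myh9 lost its edgeR call also with every transcript as its own row (0.55, adjusted p = 0.0554), the length and GC offset (0.36), the depth term (0.52) and the vascular covariate (0.51), and ranged from 0.52 to 0.59 with 1 library left out. Signs turned for Myh14 with upper-quartile scaling (-0.00), the length and GC offset (-0.19), the vascular covariate (-0.01) and left-out libraries (-0.04 to 0.09); for Myl6 (0.07) and Myl12b (0.00) with the offset; for Myl9 with the vascular covariate (-0.26); for Myl12a with the depth term (-0.02) and left-out libraries (-0.07 to 0.10); and for Myl12b with left-out libraries (-0.14 to 0.04). Myh10 was positive in all 21 settings and under the threshold in 1 of them (DESeq2, 0.17, adjusted p = 0.00452). Apart from what the settings themselves change, the causes were not tested.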
